A study of Rattus norvegicus with 33 samples.

Results

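Romboutsia is a genus of anaerobic, spore-forming bacteria of the family Peptostreptococcaceae, in the order Clostridiales of the phylum Firmicutes. The deposited tables of cecal bacteria held 1 Romboutsia row among 1455 genera and 3 Romboutsia rows among 5543 species: Romboutsia ilealis, Romboutsia sp. CE17 and Romboutsia hominis. All rows carrying the genus name were taken. A further row of the deposited normalized table named the genus without a species, so Romboutsia had 4 of that table's 6574 bacterial rows, and all of them passed the filter on low values.

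Romboutsia ilealis was first isolated from the rat small intestine, where it grows on simple sugars and amino acids supplied by the diet and the host, and it relies on preformed vitamins and amino acids more than many colon bacteria do. Romboutsia hominis came from human gut material, and the isolate CE17 is known to the tables by its strain name only. The samples here were of cecal content, so whether the genus was more abundant in the small intestine of these rats was not measured.

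The study sequenced DNA of cecal content by shotgun sequencing in 33 rats aged 14 to 15 weeks. They were 10 female and 7 male SHR, a strain with inherited hypertension, and 9 female and 7 male WKY, a normotensive strain of the same Wistar Kyoto stock. The labels give no treatment, allele, cage or litter. Each library is a rat of its own, and where rats shared a cage, p-values between groups are too small. Libraries held 163140 to 886827 assigned reads, and SHR libraries were shallower, with a mean of 404127 ± 171194 (SD, n = 10) in SHR females against 693539 ± 135679 (SD, n = 9) in WKY females. The males had 499171 ± 148821 (SD, n = 7) in SHR and 694863 ± 44206 (SD, n = 7) in WKY. Taxon names are those of the deposited tables and were not checked against reads, and species of 1 genus can share reads.

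Romboutsia was among the most abundant genera of the cecum. Its mean share was 3.96% ± 3.25 (SD, n = 33) of all assigned reads, the fourth highest of all genera when all rats were pooled. By the mean of each group it ranked 5th in SHR females, 4th in SHR males, 5th in WKY females and 2nd in WKY males. Above it stood Bacteroides at 7.63% ± 4.47 (SD, n = 33), Muribaculum at 7.24% ± 4.04 and Lactobacillus at 6.88% ± 6.26. Below it stood Akkermansia at 3.13% ± 5.39, Limosilactobacillus at 2.85% ± 2.77, Clostridium at 2.79% ± 1.12 and Bifidobacterium at 2.23% ± 2.15. For none of these neighbours was the order the same in all rats. Romboutsia was above Bacteroides in 11 of 33 rats, above Muribaculum in 11 and above Lactobacillus in 10 (5 of 10 SHR females and 1 of 9 WKY females). It was above Akkermansia in 27, above Limosilactobacillus in 25, above Clostridium in 18 and above Bifidobacterium in 28. In single rats the genus ranked from first to 17th. These shares are not corrected for genome length.

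The share of Romboutsia was lowest in SHR females, at 2.62% ± 2.05 (SD, n = 10), and highest in WKY males, at 6.38% ± 5.32 (SD, n = 7). SHR males stood at 3.62% ± 1.85 (SD, n = 7) and WKY females at 3.84% ± 2.52 (SD, n = 9). SHR females ran from 0.917% through a median of 1.94% to 7.11%, and WKY females from 1.59% through 3.25% to 9.20%. SHR males ran from 1.18% through 2.88% to 5.76%, and WKY males from 2.10% through 3.90% to 17.03%. All 4 ranges overlapped, and the largest value, in WKY male rat 385, set the upper end of the whole series. Counting error was small beside this, since the exact 95% binomial interval of a rat's share reached from 0.0239 to 0.112 percentage points on either side.

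**Figure D1:**
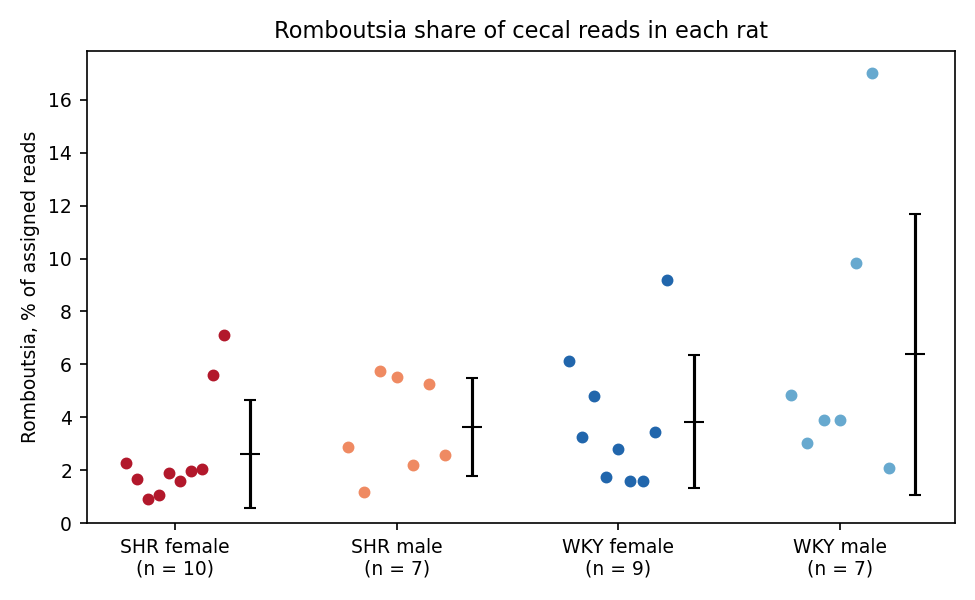
Romboutsia as percent of all assigned reads (vertical axis) in each of the 33 rats, by group; each point is a rat, and the bar beside each group is its mean ± SD. The groups overlap, with SHR females at a mean of 2.62% and WKY males at 6.38%, the latter holding the single highest value of 17.03%.

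As a share of assigned reads, none of the 4 comparisons between groups passed an exact permutation test (2-sided, on the log2 odds of the share). SHR females differed from WKY females by -0.62 on that scale (exact p = 0.168), and the median of WKY females was above 8 of 10 SHR females. SHR males differed from WKY males by -0.70 (exact p = 0.221), with 4 of 7 below the WKY male median. Females differed from males by -0.60 in SHR (exact p = 0.211) and by -0.67 in WKY (exact p = 0.210). After Benjamini-Hochberg adjustment over the 4 comparisons each exact permutation p was 0.221. Within the Firmicutes alone, Romboutsia took 5.89% ± 3.21 (SD, n = 10) of reads in SHR females and 8.33% ± 3.11 (SD, n = 9) in WKY females. In males it took 7.74% ± 3.12 (SD, n = 7) of Firmicutes reads in SHR and 11.1% ± 7.97 (SD, n = 7) in WKY. By means the order of the groups was thus the same within the phylum. By medians SHR males, at 7.34% of Firmicutes reads, were above WKY females, at 7.18%.

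The authors also deposited normalized reads, in which a library's reads are divided by its size factor. On that scale Romboutsia had 4603 normalized reads in the lowest SHR female, 8989 at the median and 31633 in the highest, against 8641, 18717 and 63651 in WKY females. In males it had 5268, 12291 and 26854 normalized reads in SHR against 9944, 21772 and 175639 in WKY. Of the 10 SHR females 4 were below every WKY female, and 3 of the 9 WKY females were above every SHR female. Of the 7 SHR males 1 was below every WKY male, and 3 WKY males were above every SHR male.

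For the genus no comparison passed limma's test on log2(normalized reads + 1), with Benjamini-Hochberg adjustment over 1418 genera. The difference SHR minus WKY was -0.99 ± 0.47 (SE) in females (limma adjusted p = 0.276) and -1.06 ± 0.54 (SE) in males (limma adjusted p = 0.460). In females 0.917% of the 1418 genera tested were called, and in males 0%, although 164 genera had an unadjusted limma p under 0.05 there. Both sexes together gave -1.03 ± 0.36 (SE), which places WKY at 2.04 times the SHR level (95% interval 1.23 to 3.37), with an unadjusted p of 0.00722 and a limma adjusted p of 0.101; 3.03% of genera were called. Without WKY male rat 385 the male difference was -0.64 (limma adjusted p = 0.680). The strain difference in females less that in males was 0.0777 (95% interval -1.38 to 1.53; limma adjusted p = 0.992), an interval that includes large differences either way. In that comparison 0% of genera were called by limma, and 87 had an unadjusted p under 0.05.

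The sexes were compared within each strain. Females minus males was -0.58 ± 0.50 (SE) in SHR (limma adjusted p = 0.989), where 0% of genera were called and 45 had an unadjusted p under 0.05. It was -0.66 ± 0.51 (SE) in WKY (limma adjusted p = 0.623), where 2.4% of genera were called. Without WKY male rat 385 the WKY value was -0.24 (limma adjusted p = 0.878), and without WKY male rat 384 it was -0.43 (limma adjusted p = 0.807). The SHR value turned to 0.0505 with rat number as covariate. The 95% intervals reached from -1.60 to 0.44 in SHR and from -1.70 to 0.39 in WKY.

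The scale of the strain difference depends on what it is set against. On the log2 odds of shares the median of all genera was 0.34 higher in SHR than WKY females and 0.40 higher in males, while on normalized reads that median was -0.0462 and -0.00849. Romboutsia was lower in SHR on both scales and in both sexes. With log2 of the total reads as a covariate the female difference grew to -1.91 (limma adjusted p = 0.0189), and that over both sexes to -1.77 (limma adjusted p = 0.00687). Calls rose over the whole table with this covariate, to 12.6% of genera in females and 15.5% over both sexes. The part of depth in the strain difference was not tested further, since total reads and strain moved together.

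Within SHR the rats fell apart by share. Rats 414 and 415 among females, at 5.62% and 7.11%, and rats 417, 418 and 422 among males, at 5.76%, 5.51% and 5.28%, stood above all other SHR rats, which reached at most 2.88%. Their libraries held 163140, 210375, 321973, 265714 and 504282 assigned reads, and the 3 shallowest libraries of the series were among them. The other SHR libraries held 293114 to 705111 reads. All 5 carried numbers of 414 or more, whereas rats 419 and 423 with such numbers had 2.20% and 2.57%. The labels do not say what a rat's number stands for, and the part of depth or number in these high shares was not tested. In WKY the highest shares were in rats 385, 384 and 389, at 17.03%, 9.85% and 9.20%, with 692183, 773359 and 776102 reads.

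**Figure D2:**
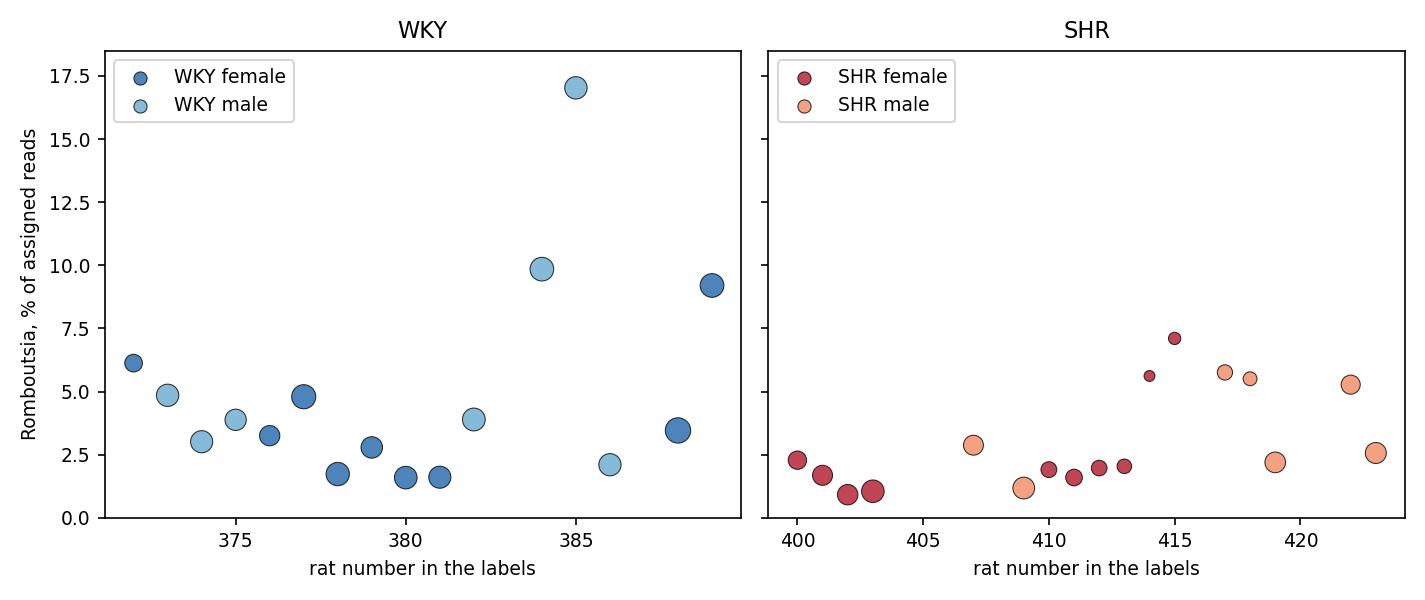
Romboutsia as percent of assigned reads (vertical axis) against the rat's number in the labels (horizontal axis), WKY on the left and SHR on the right; each point is a rat, its colour the sex and its area proportional to the library's assigned reads. In SHR the 5 shares between 5.28% and 7.11% belong to rats numbered 414 to 422, and small points mark shallow libraries.

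Leaving out the 3 shallowest libraries, all SHR and among the 5 highest SHR shares, could only widen the strain difference. Without them the log2 odds of SHR females differed from those of WKY females by -1.03 (exact permutation adjusted p = 0.0464). The males then differed by -0.84 (exact permutation adjusted p = 0.210). On normalized reads the genus stood at -1.38 in females (limma adjusted p = 0.0792) and at -1.28 over both sexes (limma adjusted p = 0.0243), where 6.09% of genera were called.

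Reads of the genus belonged almost wholly to Romboutsia ilealis. Among females this species made up 95.3% ± 0.87 (SD, n = 10) of Romboutsia reads in SHR and 95.3% ± 1.05 (SD, n = 9) in WKY. Among males it made up 95.9% ± 0.65 (SD, n = 7) in SHR and 95.8% ± 0.79 (SD, n = 7) in WKY. Over the 33 rats its part ran only from 93.7% to 97.0%, while the genus' share of assigned reads varied 18.6-fold. None of the 4 comparisons of this part passed the exact permutation test (adjusted p from 0.808 to 0.912). R. ilealis alone was the third most abundant of all species, at 3.80% ± 3.16 (SD, n = 33) of assigned reads. Romboutsia sp. CE17 ranked 152nd at 0.0528% ± 0.0300 (SD, n = 33) and R. hominis 176th at 0.0396% ± 0.0204 (SD, n = 33).

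R. ilealis had 4330 normalized reads in the lowest SHR female, 8567 at the median and 30679 in the highest, and 8115, 17541 and 61292 in WKY females. In males it had 4982, 11794 and 25927 in SHR and 9415, 20871 and 170118 in WKY. As for the genus, 8 of 10 SHR females and 4 of 7 SHR males lay below the median of the WKY rats of their sex. The log2 difference SHR minus WKY was -0.99 ± 0.45 (SE) in females, -1.06 ± 0.52 (SE) in males and -1.03 ± 0.34 (SE) over both sexes, with limma adjusted p-values of 0.239, 0.356 and 0.0637 over 4641 species. The last p passed the threshold without SHR female rat 414 (-1.10, limma adjusted p = 0.0385) or SHR female rat 415 (-1.12, limma adjusted p = 0.0356). It also passed without WKY female rat 380 (-1.10, limma adjusted p = 0.0472) or WKY male rat 386 (-1.16, limma adjusted p = 0.0280). The share of all species called in these fits is not reported here. R. ilealis also passed in 5 of 9 other settings, in which 7.20% to 12.5% of all species were called.

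Romboutsia sp. CE17 was a small member, with 93 to 1165 reads a library. Its normalized reads ran from 89.3 through a median of 163 to 385 in SHR females and from 153 through 301 to 667 in WKY females. In males they ran from 107 through 186 to 359 in SHR and from 169 through 288 to 1736 in WKY. The SHR minus WKY difference was -0.81 ± 0.34 (SE) in females, -0.86 ± 0.40 (SE) in males and -0.84 ± 0.26 (SE) over both sexes, with limma adjusted p-values of 0.198, 0.321 and 0.0503. The value over both sexes lay at the threshold: over the 33 fits without 1 rat each the limma adjusted p ran from 0.0209 to 0.0878. It passed in the 12 fits without SHR rats 414, 415, 417, 418 or 422, WKY males 374, 375 or 386, or WKY females 378, 379, 380 or 381. The share of all species called in these 12 fits is not reported here.

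R. hominis, with 67 to 743 reads a library, was the named species that passed the test. Its normalized reads ran from 73.2 through a median of 119 to 342 in SHR females and from 114 through 217 to 482 in WKY females. They ran from 73.1 through 153 to 238 in SHR males and from 129 through 220.4 to 1107 in WKY males, and 6 of 7 SHR males were below the WKY male median. The difference was -0.71 ± 0.32 (SE) in females and -0.999 ± 0.373 (SE) in males, with limma adjusted p-values of 0.241 and 0.205. Over both sexes R. hominis was lower in SHR by -0.85 ± 0.25 (SE; limma adjusted p = 0.0329), which places WKY at 1.81 times the SHR level (95% interval 1.28 to 2.55).

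That call was kept in 28 of 33 fits without 1 rat each and in 8 of 9 other settings. Without SHR male rat 407 the limma adjusted p was 0.0511 (-0.83), without SHR male rat 409 it was 0.0608 (-0.77), and without WKY female rat 376 it was 0.0502 (-0.80). Without WKY male rat 384 the limma adjusted p was 0.0592 (-0.78), and without WKY male rat 385 it was 0.0580 (-0.70). On the log2 odds of shares the limma adjusted p was 0.0863 (-0.46). On that scale 27.5% of species were called, of which 1234 were higher and 41 lower in SHR. The share of all species called in the fits without 1 rat each is not reported here.

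Of the 3 species, limma thus called 0 in females, 0 in males and 1 over both sexes, although all 3 had an unadjusted p under 0.05 in each of these comparisons. So did 16.9% of all species in females, 13.7% in males and 21.8% over both sexes. Of all 4641 species tested 2.33% were called in females, 0.539% in males and 5.45% over both sexes. No Romboutsia species was called between the sexes in SHR, where 0% of species were called and 167 had an unadjusted limma p under 0.05, or in WKY, where 0.711% were. None was called for the strain difference by sex either, where 0.0215% of species were.

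**Figure D3:**
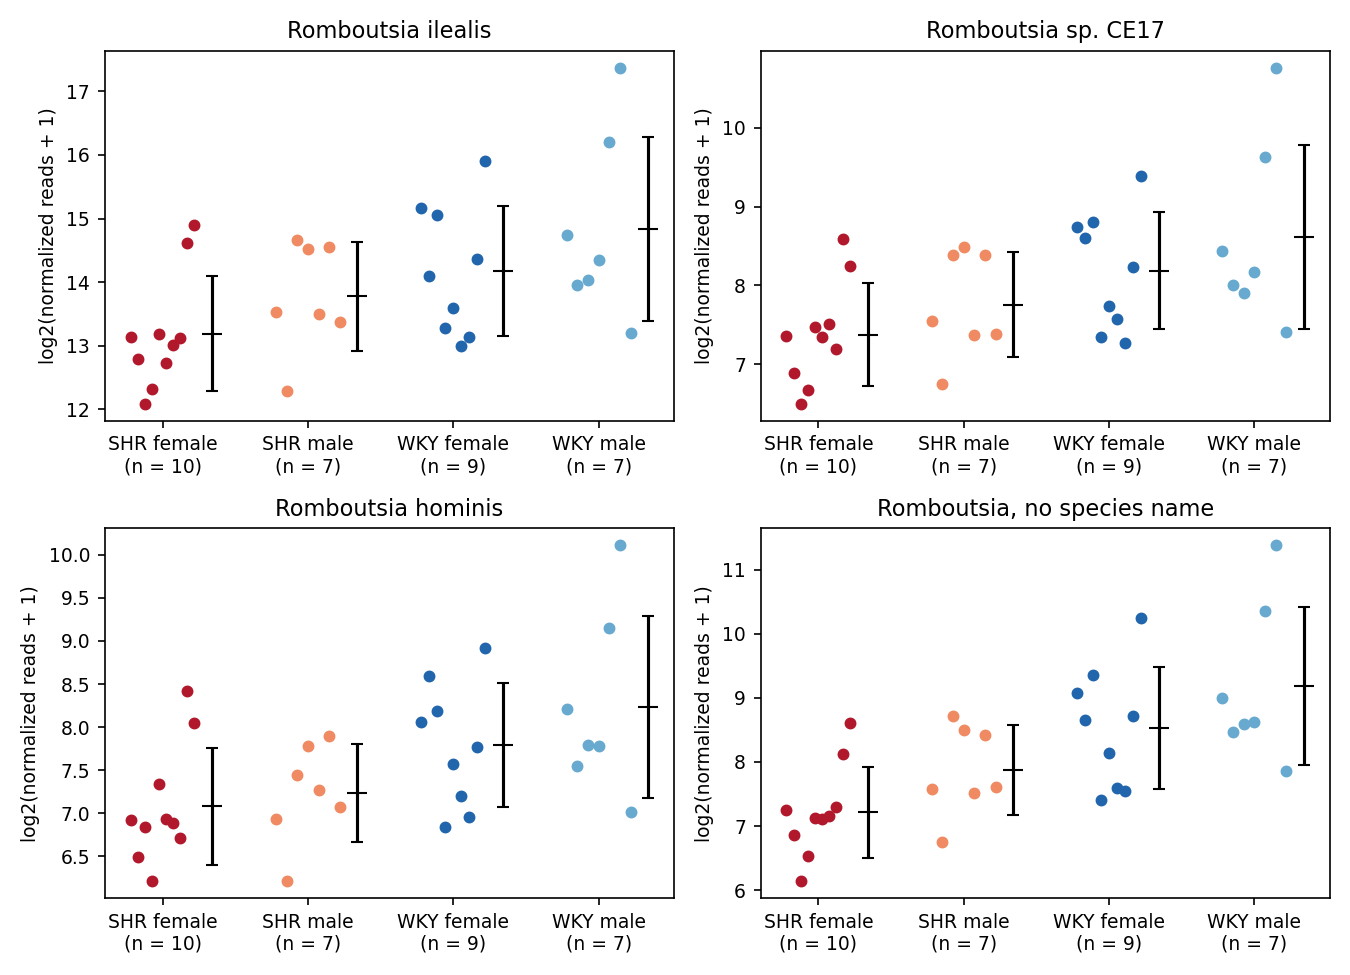
Level of the Romboutsia rows in each rat, as log2(normalized reads + 1) on axes that differ between panels; each point is a rat, and the bar beside each group is its mean ± SD. SHR females have the lowest mean in all panels, and the gap to WKY females is widest for reads without a species name, where 8 of 10 SHR females lie below every WKY female.

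Reads named to Romboutsia but to no species differed most between the strains. They ran from 69.4 through a median of 140.2 to 387 normalized reads in SHR females and from 169 through 402 to 1209 in WKY females. All 10 SHR females were below the WKY female median and 8 were below every WKY female. In males they ran from 107 through 195 to 420.1 in SHR and from 231 through 394 to 2679 in WKY, with 6 of 7 SHR males below the WKY male median and 4 below every WKY male.

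Fitted with all 4920 bacterial rows that passed the filter, these reads were lower in SHR over both sexes by -1.31 ± 0.30 (SE; limma adjusted p = 0.00796), so that WKY stood at 2.48 times the SHR level (95% interval 1.62 to 3.79). Of all bacterial rows 5.57% were called in that comparison. The difference kept its direction and its call in all 9 alternative settings, between -1.90 and -0.92, and without each of the 33 rats in turn, with limma adjusted p-values of at most 0.0160. Over the 9 settings 5.23% to 27.5% of all bacterial rows were called. The 27.5% was on log2 odds, where 1308 rows were called higher and 45 lower in SHR. The share called in the fits without 1 rat each is not reported here. In females alone the strain difference of these reads was -1.31 ± 0.39 (SE; limma adjusted p = 0.0715; 2.4% of rows called). In males it was -1.31 ± 0.46 (SE; limma adjusted p = 0.173; 0.528% of rows called). The female value passed without SHR female rat 415 (-1.46, limma adjusted p = 0.0329) and without WKY male rat 385 (-1.31, limma adjusted p = 0.0344). It also passed under DESeq2 (adjusted p = 0.0192), with log2 total reads (limma adjusted p = 0.00608), with only the groups compared (limma adjusted p = 0.0350) and without the 3 shallowest libraries (limma adjusted p = 0.0190). In these 4 settings 5.26%, 9.04%, 2.13% and 4.57% of rows were called in females. The male value passed under DESeq2 (adjusted p = 0.0196), with log2 total reads (limma adjusted p = 0.0370) and with rat number as covariate (limma adjusted p = 0.0473), where 3.78%, 2.05% and 1.02% of rows were.

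**Figure D4:**
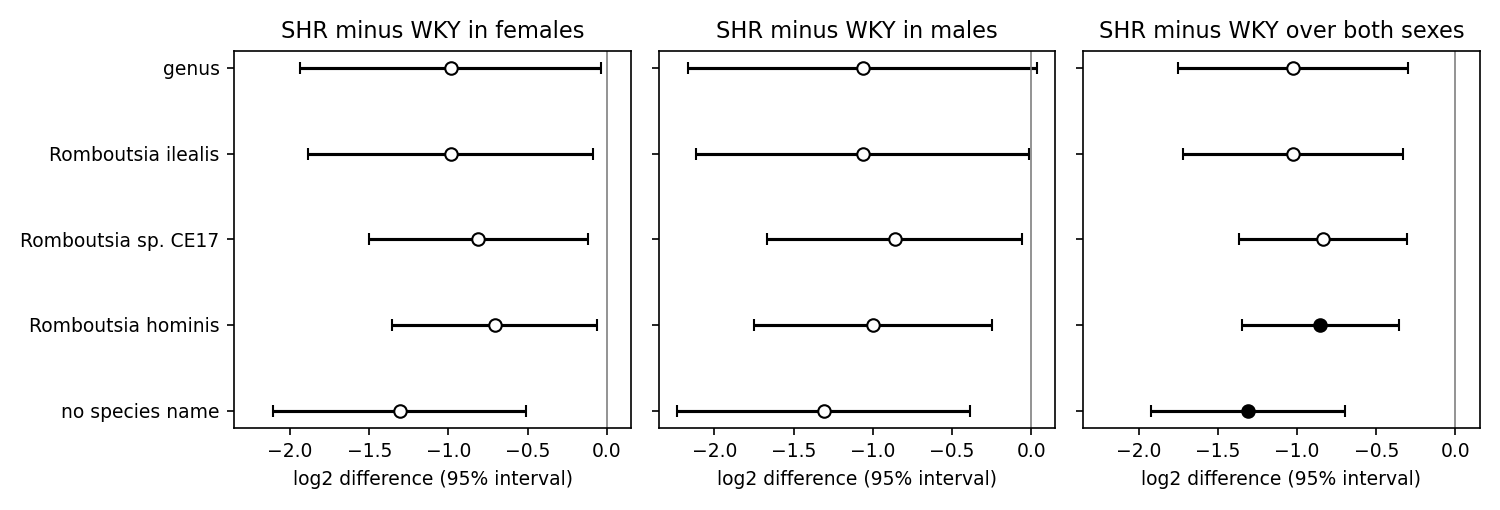
Difference SHR minus WKY in log2(normalized reads + 1) for the genus, its 3 species and its reads without a species name (rows), in females, in males and over both sexes (panels), with bars for the 95% interval of the limma fit; filled points have an adjusted p under 0.05. All points lie below 0, and R. hominis (-0.85) and the reads without a species name (-1.31) are filled over both sexes.

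The minor rows followed R. ilealis from rat to rat. After removal of group means, their log2 levels correlated with that of R. ilealis over the 33 rats at r = 0.97 for Romboutsia sp. CE17, 0.93 for R. hominis and 0.99 for reads without a species name, as a description of libraries that also share depth and possibly reads of 1 organism. For every 1000 reads of R. ilealis there were 16.1 ± 3.84 (SD, n = 33) of CE17, 12.6 ± 4.32 of R. hominis and 18.2 ± 3.26 without a species. They rose less than in proportion: the slope of log2 level on that of R. ilealis was 0.74 for CE17, 0.67 for R. hominis and 0.84 for reads without a species name.

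The composition within the genus was compared between groups as shares of Romboutsia reads. Reads without a species name took 1.53% ± 0.24 (SD, n = 10) in SHR females against 1.91% ± 0.26 (SD, n = 9) in WKY females, and all 10 SHR females were below the WKY female median. The difference of -0.33 in log2 odds had an exact permutation p of 0.00579, or 0.0695 adjusted over the 12 tests of this kind. In males they took 1.61% ± 0.21 (SD, n = 7) in SHR against 1.92% ± 0.29 (SD, n = 7) in WKY (-0.25; exact permutation p = 0.0460, adjusted 0.184). The female difference passed the adjusted threshold without SHR female rat 411 (-0.37, exact permutation adjusted p = 0.0291) or without WKY female rat 372 (-0.38, exact permutation adjusted p = 0.0121). The mean shares of the named minor species lay the other way. In females CE17 took 1.73% ± 0.36 (SD, n = 10) of Romboutsia reads in SHR and 1.54% ± 0.39 (SD, n = 9) in WKY, and R. hominis 1.43% ± 0.44 and 1.21% ± 0.46. In males CE17 took 1.49% ± 0.25 (SD, n = 7) in SHR and 1.30% ± 0.26 (SD, n = 7) in WKY, and R. hominis 1.05% ± 0.25 and 1.01% ± 0.25. Their exact permutation tests gave adjusted p-values of 0.443 and 0.373 in females and 0.373 and 0.830 in males. Between the sexes in SHR, the R. hominis share had an exact permutation p of 0.0422 (adjusted 0.184).

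**Figure D5:**
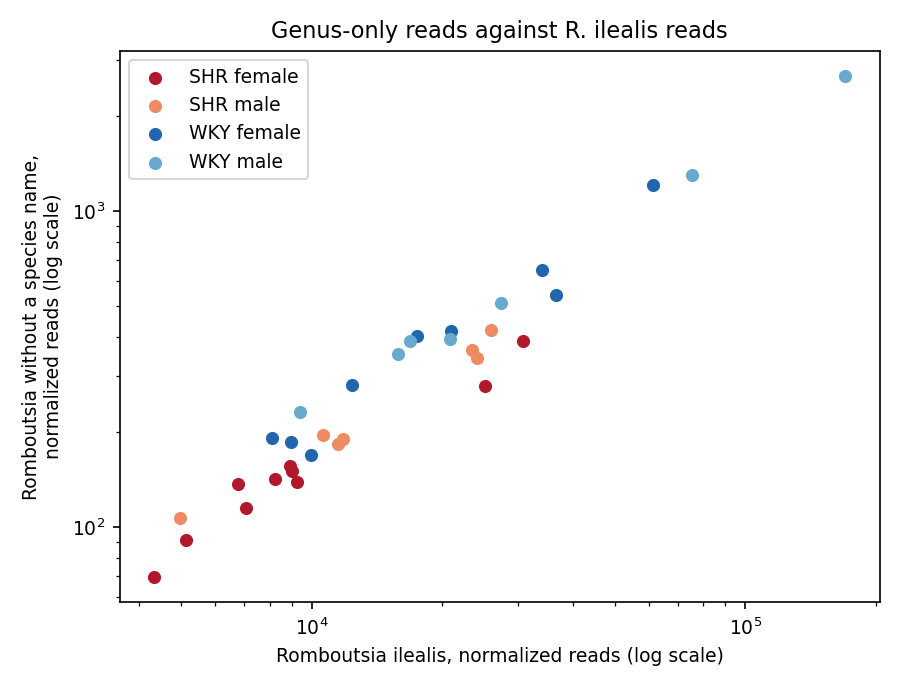
Normalized reads of Romboutsia without a species name (vertical axis, log scale) against those of Romboutsia ilealis (horizontal axis, log scale); each point is a rat, coloured by group. The points follow 1 band with a slope of 0.84 after removal of group means, and at a given level of R. ilealis most WKY rats lie above the SHR rats.

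The authors deposited the results of their own models for taxa past an adjusted p of 0.01, and the names and identifiers in them did not match. In the authors' deposited table of the general model, 383 of 463 taxon identifiers belonged to a species of the percent table, and in 1 of these 383 the printed name was the one that the percent table gives to the identifier. The identifier and the mean of the row pointed to the same species in 383 of 383. The 3 entries named Romboutsia in the authors' deposited table of the general model have the identifiers or means of other taxa. These are Clostridium intestinale, Serratia sp. SSNIH1 and a species printed as Epilithonimonas Chryseobacterium lactis. The values of the 3 entries were therefore not used for Romboutsia.

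By identifier, mean or both, 3 Romboutsia rows were in the authors' deposited table of the general model under other names. The row without a species name was matched by its mean alone, and its identifier was read from that match. The row without a species name, printed as Lactobacillus acidophilus, had a log2 fold change of 2.34 ± 0.42 (SE) and an adjusted p of 2.19e-05 in the authors' deposited table. CE17, printed there as Phaeobacter sp. LSS9, had 1.59 ± 0.38 and 0.00440 in the authors' deposited table. R. hominis, printed as Helicobacter acinonychis, had 1.38 ± 0.36 and 0.00588 in the authors' deposited table. R. ilealis was not among its rows. In the authors' deposited table of the female model, the identifier so matched to the row without a species name stood beside the name of a Pseudomonas species. Its values there were 1.44 ± 0.35 and 0.00305, and this entry rests on that identifier only. The table of the female model also printed the name Romboutsia for 1 entry. The identifier of that entry belonged to no species of the percent table, so its values were not used. None of the 41 rows of the authors' deposited table of the male model had a Romboutsia name or identifier.

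A refit showed what these values measure. A DESeq2 likelihood ratio test of any difference among the 4 groups gave a statistic within 1% of that in the authors' deposited table for 93.7% of rows. The log2 fold change in the authors' deposited table was within 0.01 of WKY males minus SHR females for 94.4% of rows, so it sets the groups of highest and lowest Romboutsia share against each other across both strain and sex. In the refit R. ilealis differed by 2.07 between these 2 groups, a contrast that was not tested by itself. Its likelihood ratio test of any difference among the 4 groups gave a DESeq2 adjusted p of 0.0101, just outside the authors' threshold of 0.01. Refits of the strains within females and within males gave R. ilealis DESeq2 adjusted p-values of 0.161 and 0.191.

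The other genera of the family were described from a list of relatives, 7 of 15 of which were in the table. None of the 7 was called by limma between the strains in females, in males or over both sexes, where 0.917%, 0% and 3.03% of all genera were. Their median SHR minus WKY difference in log2 normalized reads was -0.13 in females and -0.15 in males, where that of all genera was -0.0462 and -0.00849. On log2 odds the list stood at 0.25 in females and 0.26 in males, where the median of all genera was 0.34 and 0.40, so it was below that median on both scales. Clostridioides, the genus of the gut pathogen C. difficile and the relative with the most reads, had 2456 ± 398 (SD, n = 10) normalized reads in SHR females and 2542 ± 782 (SD, n = 9) in WKY females. In males it had 2745 ± 846 (SD, n = 7) in SHR and 5034 ± 2089 (SD, n = 7) in WKY. Its SHR minus WKY difference was -0.01 ± 0.19 (SE) in females, -0.81 ± 0.22 (SE) in males and -0.41 ± 0.14 (SE) over both sexes. The limma adjusted p-values were 0.991, 0.0734 and 0.0999. Clostridioides was the 1 relative called in any comparison, lower in WKY females than in WKY males by -0.93 ± 0.21 (SE; limma adjusted p = 0.0311), where 2.4% of genera were called. Paeniclostridium differed between the strains by -0.60 ± 0.21 (SE) over both sexes and Paraclostridium by -0.44 ± 0.24 (SE), with limma adjusted p-values of 0.0999 and 0.321.

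A second list held 7 genera known as residents of the rodent small intestine, all in the table. Over both sexes 2 of the 7 were called, against 3.03% of all genera, and both were lower in SHR: Limosilactobacillus by -2.13 ± 0.38 (SE; limma adjusted p = 0.00108) and Lactobacillus by -1.70 ± 0.45 (SE; limma adjusted p = 0.0283). Both are lactic acid bacteria, and on log2 odds they differed by -1.78 and -1.40. The genera of both lists were not refitted with rats left out. In females and in males 0 of the 7 were called by limma, against 0.917% and 0% of all genera. The list's median difference over both sexes was -0.17 on normalized reads, with -0.0316 for all genera. On log2 odds it was 0.23, with 0.37 for all genera. Lower in SHR over both sexes were 5 of the 7 on normalized reads and 3 of the 7 on log2 odds. On normalized reads Candidatus Arthromitus was higher in SHR by 0.34 ± 0.25 (SE; limma adjusted p = 0.475). Ligilactobacillus was higher by 0.22 ± 0.45 (SE; limma adjusted p = 0.838). Romboutsia at -1.03 lay between the 2 called genera and Turicibacter, a gut genus of the Firmicutes, at -0.60 ± 0.34 (SE; limma adjusted p = 0.334).

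The genera that moved most like Romboutsia across rats were found by the correlation of log2 levels after removal of group means, over 33 rats and 338 genera. They were Turicibacter (r = 0.96), Enterococcus (0.93), Weissella (0.89), Tetragenococcus (0.88) and Streptococcus (0.88), all of the Firmicutes, where the median genus had r = 0.0159. Within single groups the correlation with Turicibacter was 0.95 and 0.97 in female and male SHR, and 0.93 and 0.99 in female and male WKY. The lowest values were those of Caulobacter (-0.89), Paracoccus (-0.87) and Streptomyces (-0.86), genera known for GC-rich genomes. These correlations describe rats that share depth, size factor and base composition of the library within each point, and the part of these was not tested.

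Among 287 species, those most like R. ilealis were Turicibacter sp. H121 (r = 0.97), Turicibacter sanguinis (0.95), Enterococcus avium (0.91), Listeria monocytogenes (0.88) and Lactobacillus kullabergensis (0.88), with a median of 0.17 over all species compared. Within single groups L. kullabergensis had 0.88 and 0.46 in female and male SHR, and 0.99 and 0.96 in female and male WKY. Among 430 functional subsystems, the gene groups to which reads were also assigned, the levels most like that of the genus were those of the sporulation cluster (r = 0.92) and heme and hemin uptake in Gram-positive bacteria (0.91). A subsystem of hypothetical genes coupled to RecF (0.91), the cell envelope LytR-CpsA-Psr attenuators (0.91) and an unnamed gene cluster (0.90) followed. The median over all subsystems compared was -0.0490. Reads of subsystems were not traced to genera, and here too the values of a library share its depth. The part of Romboutsia in these levels was not tested.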

How the data were processed

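Per the labels' protocols, DNA of cecal content was extracted with a bead-based soil kit and made into Nextera libraries. Trimmomatic 0.36, cutadapt 2.6, FastQC 0.11.5 and DESeq2 are named in the submitters' processing notes. What assigned reads to taxa is not stated in these sources. The authors deposited percent of all assigned reads per genus and species, and a normalized signal, the reads of each of 8584 taxa or 1057 functions divided by the library's size factor. The deposited model tables hold a log2 fold change with its standard error, a mean normalized count, and a p-value and adjusted p-value per taxon. Low values were whole multiples of what 1 read is worth, so dividing gave whole reads for 100% of values (tolerance 0.01 read), from which totals were taken.

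The main test was limma 3.58.1 in R 4.3.3 (trend, robust) on log2(normalized value + 1), with 4 group means over 33 rats, for features with at least 10 normalized reads in 7 rats, and an adjusted p of 0.05 as threshold. A fold change on this scale is understated for low taxa. The limma script was tested on simulated data with known changes. Shares were compared by exact permutation of log2 odds (scipy 1.17.1). Alternatives were edgeR 4.0.16 and DESeq2 1.42.0 on the recovered reads, a pseudocount of 10, no filter, no trend, log2 total reads or rat number as covariate, only the groups compared, each rat left out and the 3 shallowest libraries left out. The row without a species, the shares of minor members and the refit were added after seeing the data. Romboutsia and all lists were chosen with earlier results of these data known. Named taxa were all Romboutsia rows and up to 4 genera on each side of its rank. Per list they were the 2 genera with most reads and the 2 with the largest difference in females. By correlation they were the 5 genera, species and subsystems of highest value and 3 genera of lowest, among those with a mean of at least 100 normalized reads. In the second list Turicibacter, Candidatus Arthromitus and Ligilactobacillus were named besides these. The 2 lists were compared by counts and medians only.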

Additional observations from a re-analysis of the deposited data

Results flagged for a closer look

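Of 56 sets of rats examined, 1 for each member, measure and group, 3 had a rat far from the others. Chance alone would give about 1 in 20 if the sets were independent and normally distributed. The sets share rats and reads, so this rate is only a rough guide. R. hominis made up 2.47% of the Romboutsia reads of SHR female rat 402, where the other SHR females had 0.836% to 1.69%. This rat had the lowest share of the genus, 0.917% of assigned reads. Romboutsia sp. CE17 made up 2.02% of the Romboutsia reads of SHR male rat 409, where the other SHR males had 1.24% to 1.51%. That rat had the lowest share of the genus among SHR males, 1.18%. Romboutsia reads without a species name were 0.175% of the assigned reads of WKY female rat 389, where the other WKY females had 0.0282% to 0.0883%. This rat also had the highest share of the genus among WKY females, 9.20%.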

How the results depend on the processing

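For the genus, the strain difference kept its direction in both sexes in all settings run. In females it was called with log2 total reads as covariate (-1.91), and over both sexes under edgeR (-1.30), DESeq2 (-1.31), log2 total reads (-1.77) and without the 3 shallowest libraries (-1.28). Calls rose over all genera too, from 0.917% to 12.6% in females, and over both sexes from 3.03% to 5.78%, 8.18%, 15.5% and 6.09% in that order. On shares, the female difference was called without these libraries (-1.03). The strain difference by sex changed sign with log2 total reads (-0.28), without the 3 shallowest libraries (-0.19) and when single rats were left out (-0.34 to 0.35). The sex difference in SHR changed sign with rat number as covariate (0.0505). Settings without single rats or libraries test fewer rats, and the cause of the other changes was not tested.

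The count of Romboutsia species called in females was 3 with log2 total reads, where 8.81% of all species were called against 2.33% before. In males it was 1 under DESeq2 and 1 with log2 total reads, where 3.75% and 2.004% of all species were called against 0.539%. Over both sexes it was 0 on log2 odds, 2 with a pseudocount of 10, 2 without a filter, and 3 each under edgeR, DESeq2, log2 total reads, rat number and without the 3 shallowest libraries. Of all species 27.5% were called on log2 odds, of which 1234 were higher and 41 lower in SHR. With a pseudocount of 10 the share called was 7.00% and without a filter 5.23%, against 5.45% before. The other settings, in the order given, called 9.57%, 11.5%, 12.5%, 7.20% and 8.68%. The count of Romboutsia species ran from 0 to 3 as single rats were left out. The share of all species called in those fits is not reported here, so this count cannot be set against it. Leaving out single rats moved the R. ilealis share of genus reads between -0.0868 and 0.0464 in females and between -0.0393 and 0.0927 in males (log2 odds, SHR minus WKY), and that of R. hominis in males between -0.0427 and 0.175. The fit of only the groups compared could not be made for the comparisons over both sexes and by sex, which need all 4 groups. No paired analysis was possible because the labels carry no replicate numbers shared between groups. Depth limits the minor species, with as few as 67 reads in a library.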
